A study of Mus musculus with 8 samples.

Results

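Described here are 10 genes of the natriuretic peptide and renin-angiotensin systems in the cardiac ventricle: Nppa, Nppb, Corin, Npr1, Npr2, Npr3, Agt, Ace, Agtr1a and Nr3c2. They were chosen by gene name from the 43346 genes listed in the count table. All 10 were among the 16111 genes with enough reads to be tested. The hearts came from male C57BL/6 mice with no engineered allele named in the labels. The 4 LLC1 mice received 1000000 LLC1 cells in PBS under the skin of the flank at 7 weeks of age, and the 4 PBS mice received PBS alone at the same age. LLC1 is a mouse Lewis lung carcinoma line that grows as a tumor in this strain. All 8 hearts were sampled 14 days after the injection, and 1 RNA sequencing library was made from the ventricle of each mouse. Mice are called by group and label code: LLC1 1-2, 1-3, 1-5 and 2-2, and PBS 1-1, 1-3, 2-1 and 2-5. The labels do not say what either number of the code stands for. The model is a single tumor line at a single time point in males, so these data do not separate an effect of tumor growth from other effects of injected cells.

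The heart is an endocrine organ. Cardiomyocytes make atrial natriuretic peptide (ANP, from Nppa) and brain natriuretic peptide (BNP, from Nppb), which act through cyclic GMP to promote salt loss and relax vessels. Both transcripts are known to rise in ventricles under pressure or volume load, and BNP fragments are measured in plasma as markers of heart failure. The renin-angiotensin system works in the opposite direction: angiotensinogen is cut by renin and then by angiotensin-converting enzyme into angiotensin II, which raises blood pressure and aldosterone.

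Nppb and Nppa are neighbors on mouse chromosome 4 (mm10), on the plus strand, with 13516 bases between the end of Nppb and the start of Nppa. Bases before the RefSeq starts of the 2 genes are shown as a description, and their part in the levels of the transcripts was not tested. They are RefSeq sequences on GRCm38.p6, and 9 of the 10 genes had an entry. Capitals mark 5 motifs searched on both strands: the TATA box TATAAA, 2 GATA motifs (TGATAA and AGATAA), the NKX2-5 motif CAAGTG, and the M-CAT motif CATTCC, which reads GGAATG on the other strand. The first sequence holds the 250 bases before the start of Nppa (chr4:148000472-148000721). The other 2 are fragments before the RefSeq start of Nppb (chr4:147985795-147985821 and chr4:147985860-147985883). Both fragments lie inside the deposited interval of Nppb, which begins before the RefSeq start.
Nppa upstream: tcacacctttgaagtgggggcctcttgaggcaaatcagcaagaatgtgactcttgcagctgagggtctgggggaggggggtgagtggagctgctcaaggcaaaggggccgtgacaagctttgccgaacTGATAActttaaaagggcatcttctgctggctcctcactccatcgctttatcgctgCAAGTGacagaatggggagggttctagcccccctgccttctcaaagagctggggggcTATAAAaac
Nppb GATA cluster: GGAATGcagcTGATAAatcagAGATAA
Nppb TATA box: cagccccagTATAAAaggcagagg

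In Nppa, the motif TATAAA began 9 bases before the annotated start, CAAGTG 66 bases before it and TGATAA 122 bases before it. In Nppb, TATAAA began 31 bases before the start, AGATAA 84, TGATAA 95 and the reverse-strand CATTCC 105. Both genes therefore held a TATA box and TGATAA, while AGATAA and CATTCC were found only before Nppb and CAAGTG only before Nppa, within these 250 bases. None of the motifs is rare. Among 32851 promoters of the same length, TATAAA was present in 12.4%, TGATAA in 7.94%, AGATAA in 9.99%, CATTCC in 12.6% and CAAGTG in 11.6%. A match describes the letters and is not evidence of a bound factor.

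Levels are given as CPM, the reads of a gene per 1000000 reads of its library after scaling by the trimmed mean of M-values (TMM). Totals ran from 15342214 to 19747596 reads in the LLC1 libraries and from 12480706 to 16192158 in the PBS libraries. PBS 1-1 had the fewest reads, the lowest TMM factor (0.935) and stood apart from the other 7 mice on the second principal component, which held 25.2% of the variance. Where leaving out this mouse changed a call or moved a value by much, the value without it is also given. A call means a false discovery rate (FDR) under 0.05, from the quasi-likelihood F-test of edgeR with adjustment across all 16111 genes. Of these, 8.73% were called, 4.12% higher and 4.61% lower in the tumor-bearing mice, and 25.5% had an unadjusted p under 0.05, the share against which such counts are read below. With library totals in place of TMM factors 6.32% of genes were called, 225 higher and 793 lower, so the balance of directions depends on the scaling.

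Of the 10 genes, 1 was called, near the 8.73% of all genes called: Corin, which was higher in the tumor-bearing mice. The other 9 did not pass the test. The median log2 fold change of all 10 was 0.01, against −0.01 over all genes tested. Corin was also the only 1 of the 10 in which the groups did not overlap, a pattern seen in 17.2% of all genes tested, 8.89% with the LLC1 mice above. The genes also differed in spread: Nppa and Nppb varied the most between mice of the same group, as detailed below.

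**Figure D1:**
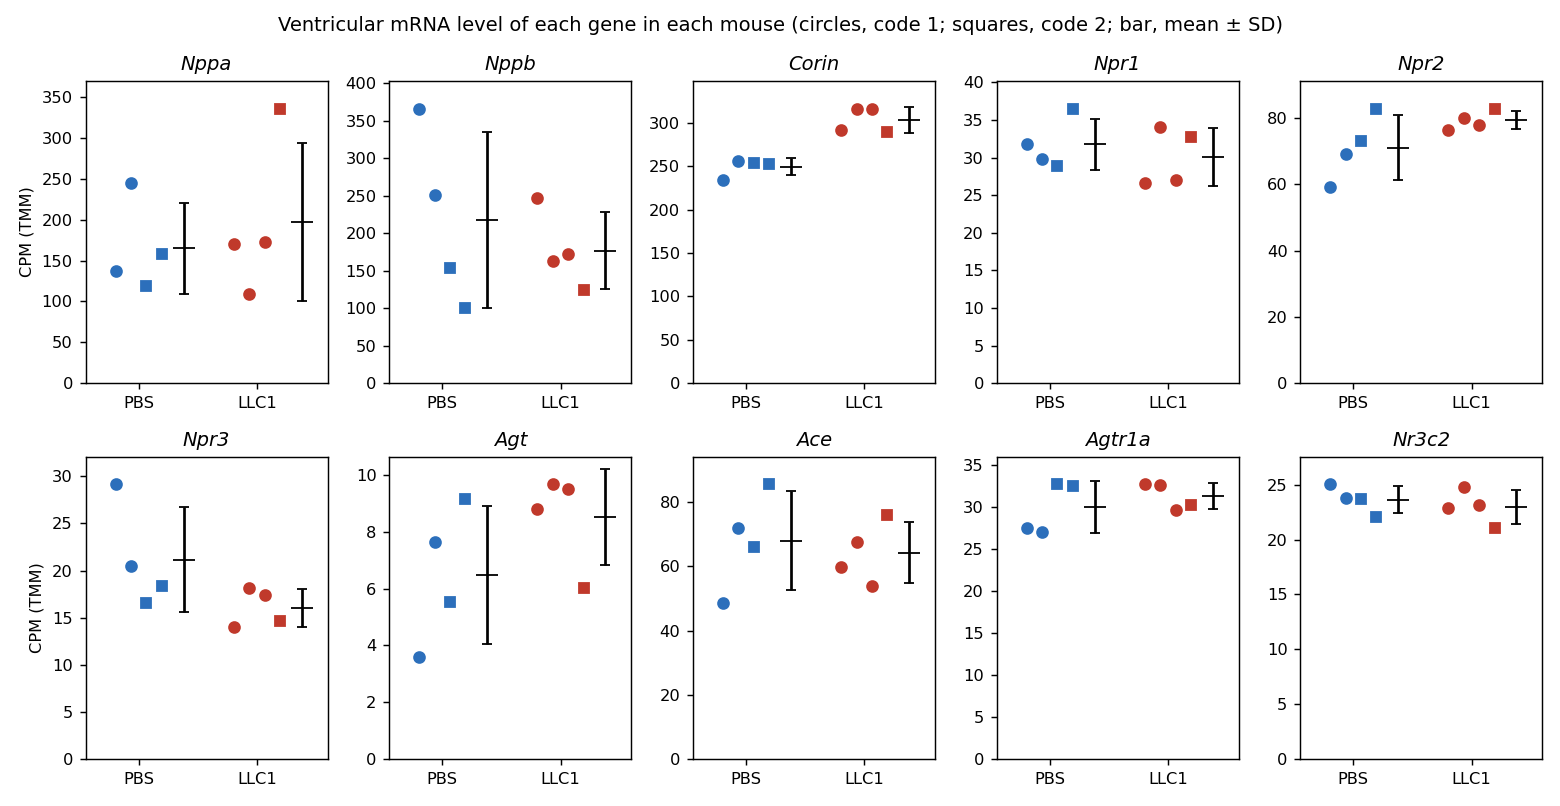
Ventricular mRNA level of each of the 10 genes in CPM (vertical axes, each from 0) in the 4 PBS mice (blue) and the 4 LLC1 mice (red). Circles are mice whose code starts with 1, squares those whose code starts with 2, and bars are group means ± SD. The groups separate in the Corin panel, and the widest scatter is in the Nppa and Nppb panels.

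To rank the genes by transcript abundance, CPM were divided by gene length. Per kilobase in the PBS hearts, Nppb had the highest mean level (279 CPM per kb), followed by Nppa (191) and Corin (46.2). These levels exceeded those of 98.8%, 98.4% and 93.6% of the genes tested. The level of Nppa is uncertain, since most of its exon bases are shared with an antisense gene, as described below. The remaining genes lay below: Npr2 (15.2 CPM per kb), Ace (12.9), Agtr1a (12.2), Npr1 (6.65), Nr3c2 (3.65), Agt (3.43) and Npr3 (3.05). Between neighbors in this order, the ranges over the 4 mice overlapped for Nppb and Nppa, Npr2 and Ace, Ace and Agtr1a, Nr3c2 and Agt, and Agt and Npr3. The ranges were separate between Nppa and Corin, Corin and Npr2, Agtr1a and Npr1, and Npr1 and Nr3c2.

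The 2 ligand genes did not pass the test between the groups. Nppa (ENSMUSG00000041616, mm10 chromosome 4, 148000722 to 148002079) stood at 169.9, 109.7, 173 and 336 CPM in LLC1 1-2, 1-3, 1-5 and 2-2. It stood at 137, 245, 119 and 158 CPM in PBS 1-1, 1-3, 2-1 and 2-5. LLC1 2-2 and PBS 1-3 were the highest mice of their groups, and the lowest LLC1 mouse was below every PBS mouse. The means were 197 ± 97.1 CPM in LLC1 and 165 ± 55.9 CPM in PBS mice (SD, n = 4 each). The log2 fold change was 0.26 (SE 0.30, 95% interval −0.38 to 0.90), with an FDR of 0.622 in edgeR and p = 0.629 in the exact 2-sided permutation test.

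The direction of Nppa rested on 1 mouse. Without LLC1 2-2 the log2 fold change was −0.13, and without PBS 1-3 it was 0.51. Levels differed 3.06-fold between the highest and the lowest LLC1 mouse and 2.06-fold between the PBS mice. The SD of log2 CPM within groups was 0.57, above that of 96.9% of all genes tested and of 99.2% of the genes with a mean of at least 50 CPM. The median over all genes tested was 0.16.

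Reads of Nppa cannot be told apart by strand from those of a second gene. Of its 865 exon bases in the GENCODE M21 annotation, 532 (61.5%) are shared with Gm13054, an antisense gene, and the library kit does not mark strand. Gm13054 was the gene nearest to Nppa in its pattern over the 8 mice, with a root mean square (RMS) difference of 0.06 on the mean-centered log2 scale among 15065 genes. The ratio of Nppa to Gm13054 counts stayed between 1.43 and 1.65 in all 8 mice. The next nearest genes were Gm12988 (RMS difference 0.25), Gm6733 (0.26), Ucn (0.29), which encodes the peptide urocortin, and Apol7d (0.29). These were much less close than Gm13054.

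Nppb (ENSMUSG00000029019, chromosome 4, 147985788 to 147987205) stood at 247, 163, 172 and 124 CPM in LLC1 1-2, 1-3, 1-5 and 2-2. It stood at 366, 252, 153 and 99.9 CPM in PBS 1-1, 1-3, 2-1 and 2-5. PBS mice held both the highest and the lowest value, so the LLC1 range lay inside the PBS range. The means were 177 ± 51.6 CPM in LLC1 and 218 ± 117 CPM in PBS mice. The log2 fold change was −0.30 (SE 0.32, 95% interval −1.004 to 0.40, FDR 0.602 in edgeR), and the exact permutation p was 0.743.

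As with Nppa, the direction of Nppb turned with 1 mouse. Without PBS 1-1 the log2 fold change was 0.07, and without PBS 2-5 it was −0.54. PBS mice differed 3.67-fold from highest to lowest, and LLC1 mice 2.00-fold. The within-group SD of log2 CPM was 0.65, above that of 98.2% of all genes tested. For Nppa and Nppb alike, the 95% intervals therefore left room for changes in either direction.

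Nppb levels were ordered by the first number of the mouse code. The 5 mice with codes starting with 1 stood at 163 to 366 CPM, and the 3 mice with codes starting with 2 at 99.9 to 153 CPM, without overlap. This comparison was chosen after the values were seen, and the share of all genes that separate by code in this way was not computed. In a fit with group and code together, the log2 difference of code 2 from code 1 was −1.01 (SE 0.20), and its FDR over all genes in edgeR was 0.317. For the code, 0% of genes were called in that fit, although 1920 genes had an unadjusted p under 0.05. With the code as a covariate, the tumor effect on Nppb was −0.44 (FDR 0.151).

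The genes nearest to Nppb in pattern were Nfil3 (RMS difference 0.21), Pitpnm2os2 (0.21), Gm27028 (0.23), Hsp90aa1 (0.25) and Hsph1 (0.26). Nfil3 encodes a clock-linked leucine zipper repressor, while Hsp90aa1 and Hsph1 encode inducible cytosolic chaperones. Hsp90aa1 stood at 246 CPM in PBS 1-1 and 152 CPM in PBS 1-3, against 87.7 to 118 CPM in the other 6 mice. Hsph1 stood at 124 and 79.4 CPM in the same 2 mice and at 38.5 to 53.0 CPM elsewhere. Nppa was not among these genes, its RMS difference from Nppb being 0.80. These likenesses are descriptions over the 8 mice.

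**Figure D2:**
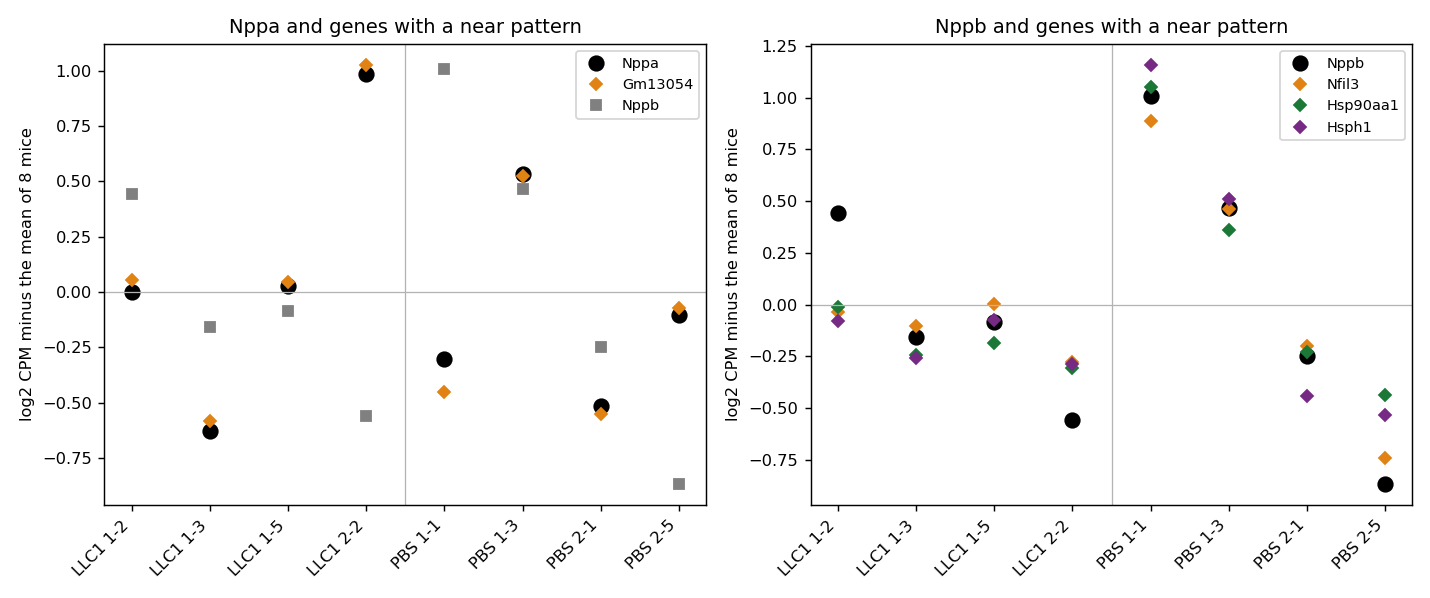
Log2 CPM minus the mean of the 8 mice (vertical axes) in each mouse (horizontal axes, LLC1 left of the gray line and PBS right). Left, Nppa with its antisense gene Gm13054 and with Nppb; right, Nppb with Nfil3, Hsp90aa1 and Hsph1. Nppa is highest in LLC1 2-2 and Nppb in PBS 1-1, and Gm13054 lies on Nppa in most mice.

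The balance of the ligands was read as the ratio of Nppa to Nppb counts, which needs no library scaling and is not corrected for gene length, so it serves only to compare mice. The ratio was 0.687, 0.671, 1.00 and 2.71 in LLC1 1-2, 1-3, 1-5 and 2-2. It was 0.375, 0.975, 0.775 and 1.58 in PBS 1-1, 1-3, 2-1 and 2-5. The groups overlapped, and the highest ratio was in LLC1 2-2 and the lowest in PBS 1-1. The mean log2 ratio was 0.08 ± 0.94 in LLC1 and −0.29 ± 0.86 in PBS mice, a difference of 0.37 with an exact 2-sided permutation p of 0.571 (0.714 adjusted over 3 ratios). It turned to −0.08 without LLC1 2-2 and to −0.00309 without PBS 1-1, and was 0.69 without PBS 2-5.

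Of 7 other tested genes within 100 kb of Nppa or Nppb, 2 were called, in opposite directions, beside 8.73% of all genes. Plod1, a collagen lysyl hydroxylase, was lower in the tumor-bearing mice at 124 ± 5.67 against 150.5 ± 10.95 CPM (log2 fold change −0.27, FDR 0.0287 in edgeR). Gm13202 was higher at 12.8 ± 0.644 against 8.27 ± 1.34 CPM (log2 fold change 0.62, FDR 0.00978). Clcn6, 2510039O18Rik, Gm13054 and Agtrap did not pass, with log2 fold changes of 0.11, 0.10, 0.33 and −0.00436. Agtrap encodes a protein that binds the angiotensin II type 1 receptor.

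Corin (ENSMUSG00000005220, chromosome 5, 72300025 to 72504473) encodes the transmembrane serine protease of cardiomyocytes that cuts pro-ANP into ANP. Its mRNA was higher in every tumor-bearing mouse than in any PBS-injected mouse. Corin stood at 292, 317, 316 and 289 CPM in LLC1 1-2, 1-3, 1-5 and 2-2. It stood at 235, 256, 254 and 253 CPM in PBS 1-1, 1-3, 2-1 and 2-5. The means were 303 ± 14.9 and 249 ± 10.0 CPM, a 1.22-fold difference. The log2 fold change was 0.28 (SE 0.06, 95% interval 0.15 to 0.41), with an FDR of 0.0170 in edgeR. The exact permutation p was 0.0286, the smallest that 4 against 4 mice can give.

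The call for Corin depended on some choices. It was lost with library totals in place of TMM factors (log2 fold change 0.23, FDR 0.103). It was also lost without LLC1 1-3 (FDR 0.0637), LLC1 1-5 (0.0569) or PBS 1-3 (0.0523), while the log2 fold change stayed between 0.25 and 0.30 in all 8 fits that left out 1 mouse. Without PBS 1-1, its lowest mouse, it was 0.25 with an FDR of 0.0173. Set against the summed counts of 6 ventricular cardiomyocyte markers, a ratio added after the data were seen, Corin was 1.121-fold higher. The groups then overlapped, with an exact permutation p of 0.0857. Without PBS 1-1 the ratio was 1.09-fold higher, with an exact permutation p of 0.171, where the smallest possible is 0.0571. In bulk tissue, more cardiomyocytes and more Corin mRNA per cardiomyocyte cannot be told apart.

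**Figure D3:**
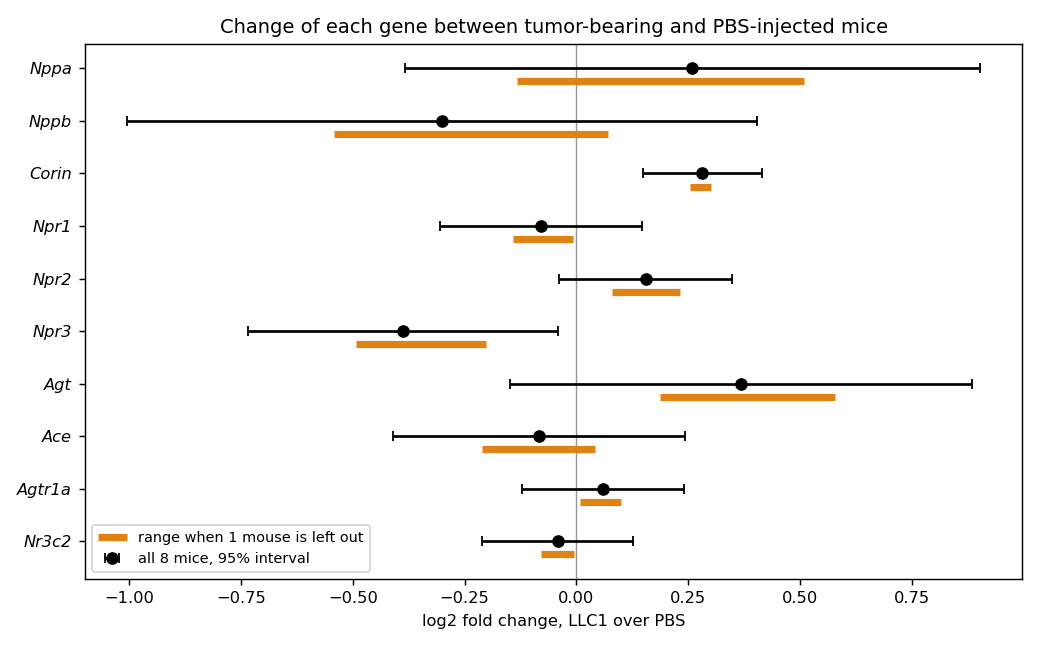
Log2 fold change of each of the 10 genes, LLC1 over PBS (horizontal axis), with 95% intervals from the edgeR fit of all 8 mice. Orange bars give the range when 1 mouse is left out, and the line at 0 marks equal levels. The interval of Corin lies above 0 from 0.15 to 0.41, and those of Nppa and Nppb are wide and include 0.

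Among other genes of peptide processing, clearance and cyclic GMP signaling, 12 of 14 listed were tested, and 1 was higher and 0 were lower. This is near the share called among all genes, 8.73%, and is no result about the list. By edgeR 1 of the 12 had an unadjusted p under 0.05, and DESeq2 and limma-voom each called 1. The median log2 fold change of the list was −0.05. The called gene was Furin, a proprotein convertase that cuts pro-BNP among many substrates. Furin stood at 115 to 139 CPM in LLC1 and 91.6 to 109.6 CPM in PBS mice, with means of 130.1 ± 10.5 and 99.5 ± 7.59 CPM. Its log2 fold change was 0.39 (SE 0.08, FDR 0.0120 in edgeR). Furin lost the call with library totals (FDR 0.0644) and without PBS 1-3 (FDR 0.0518). Nppc, the gene of C-type natriuretic peptide, had at most 1 read in any mouse and was not tested.

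None of the 3 natriuretic peptide receptor genes was called. Among all 10 genes, 2 had an unadjusted p under 0.05 in edgeR, Corin and Npr3, beside 25.5% of all genes tested. DESeq2 and limma-voom each called 1 of the 10.

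Npr1 (ENSMUSG00000027931, chromosome 3, 90450591 to 90465866) encodes the receptor guanylyl cyclase for ANP and BNP. It stood at 26.7, 34.1, 27.0 and 32.7 CPM in LLC1 1-2, 1-3, 1-5 and 2-2, and at 31.8, 29.9, 29.0 and 36.5 CPM in PBS 1-1, 1-3, 2-1 and 2-5. The groups overlapped, though LLC1 1-2 and 1-5 lay below every PBS mouse and PBS 2-5 above every LLC1 mouse. The means were 30.1 ± 3.85 and 31.8 ± 3.38 CPM. The log2 fold change was −0.08 (95% interval −0.30 to 0.15, FDR 0.672 in edgeR).

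Npr2 (ENSMUSG00000028469, chromosome 4, 43631935 to 43651244) encodes the guanylyl cyclase receptor for C-type natriuretic peptide. It stood at 76.5, 80.0, 77.8 and 82.8 CPM in LLC1 1-2, 1-3, 1-5 and 2-2, and at 59.3, 69.1, 73.0 and 82.8 CPM in PBS 1-1, 1-3, 2-1 and 2-5. LLC1 mice lay close together, and PBS 1-1 was the lowest mouse. The means were 79.3 ± 2.76 and 71.1 ± 9.73 CPM, and the log2 fold change was 0.16 (95% interval −0.04 to 0.35, FDR 0.298 in edgeR). Without PBS 1-1 it was 0.08.

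Npr3 (ENSMUSG00000022206, chromosome 15, 11839896 to 11905674) encodes the clearance receptor, which binds all 3 natriuretic peptides and takes them into the cell. It stood at 14.0, 18.1, 17.5 and 14.6 CPM in LLC1 1-2, 1-3, 1-5 and 2-2, and at 29.2, 20.5, 16.6 and 18.4 CPM in PBS 1-1, 1-3, 2-1 and 2-5. PBS 1-1 was the highest mouse, and PBS 2-1 lay within the LLC1 range. The means were 16.0 ± 2.05 and 21.1 ± 5.58 CPM. The log2 fold change was −0.39 (SE 0.16, 95% interval −0.73 to −0.04), with an unadjusted p of 0.0314 and an FDR of 0.150 in edgeR, and an exact permutation p of 0.114.

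Among the genes not called in the fit of group alone, Npr3 was the one that moved across the threshold under another setting. With the first number of the code as a covariate its log2 fold change was −0.46 and its FDR 0.0447 in edgeR. The FDR over all 8 alternatives with 8 mice ran from 0.0447 to 0.181. Without PBS 1-1 the log2 fold change was −0.20 and the FDR 0.266. The log2 ratio of Npr3 to Npr1 averaged −0.91 ± 0.22 in LLC1 and −0.62 ± 0.37 in PBS mice, a difference of −0.29 with an exact permutation p of 0.229 (0.686 adjusted over 3 ratios). That difference was −0.13 without PBS 1-1 (exact permutation p = 0.457) and −0.42 without PBS 2-5 (exact permutation p = 0.114).

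Turning to the renin-angiotensin genes, the precursor, the converting enzyme and the receptor did not pass the test. Agt (ENSMUSG00000031980, chromosome 8, 124556534 to 124569706), which encodes angiotensinogen, stood at 8.80, 9.68, 9.52 and 6.04 CPM in LLC1 1-2, 1-3, 1-5 and 2-2. It stood at 3.60, 7.64, 5.53 and 9.15 CPM in PBS 1-1, 1-3, 2-1 and 2-5. PBS 1-1 was lowest, and LLC1 1-2 and 2-2 lay inside the PBS range. The means were 8.51 ± 1.69 and 6.48 ± 2.43 CPM, on 42 to 174 reads per mouse, the thinnest counts of the 10 genes. Between the groups the log2 fold change was 0.37 (SE 0.24, 95% interval −0.15 to 0.88, FDR 0.359 in edgeR). It was 0.19 without PBS 1-1 and 0.58 without PBS 2-5 (FDR 0.133).

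In pattern over the 8 mice, the nearest genes to Agt were Hspa9-ps1 (RMS difference 0.18), Rpl22-ps1 (0.20), Plscr5 (0.20), Scn10a (0.20) and Gm11539 (0.20). Hspa9-ps1 and Rpl22-ps1 are named as pseudogenes, whose reads can be shared with their parent genes. Scn10a encodes a voltage-gated sodium channel.

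Ace (ENSMUSG00000020681, chromosome 11, 105967945 to 105989964) encodes angiotensin-converting enzyme, carried mainly by endothelium. It stood at 59.8, 67.6, 53.8 and 76.0 CPM in LLC1 1-2, 1-3, 1-5 and 2-2, and at 48.5, 72.1, 65.9 and 85.6 CPM in PBS 1-1, 1-3, 2-1 and 2-5. PBS mice held both extremes, PBS 1-1 low and PBS 2-5 high. The means were 64.3 ± 9.62 and 68.0 ± 15.4 CPM, and the log2 fold change was −0.08 (95% interval −0.41 to 0.24, FDR 0.769 in edgeR). It was 0.04 without PBS 2-5 and −0.21 without PBS 1-1.

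Agtr1a (ENSMUSG00000049115, chromosome 13, 30336441 to 30382867) encodes the main type 1 receptor of angiotensin II in the mouse. It stood at 32.7, 32.7, 29.7 and 30.3 CPM in LLC1 1-2, 1-3, 1-5 and 2-2, and at 27.5, 27.1, 32.7 and 32.6 CPM in PBS 1-1, 1-3, 2-1 and 2-5. The groups overlapped, with means of 31.3 ± 1.599 and 29.98 ± 3.10 CPM. On the log2 scale the fold change was 0.06 (95% interval −0.12 to 0.24, FDR 0.697 in edgeR). Its transcript is 90.2% identical to that of Agtr1b along 1134 bases, and the counting may have divided reads between this pair of genes. Agtr1b had at most 2 reads in any mouse, and the type 2 receptor Agtr2 had 0 reads in all 8 mice. A count of 0 allows up to 3 reads, which is at most 0.257 CPM in any of these libraries, for counting error only.

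Nr3c2 (ENSMUSG00000031618, chromosome 8, 76899442 to 77245012) encodes the mineralocorticoid receptor, which binds aldosterone and, in cardiomyocytes, mainly glucocorticoids. It stood at 22.9, 24.8, 23.2 and 21.0 CPM in LLC1 1-2, 1-3, 1-5 and 2-2, and at 25.1, 23.8, 23.7 and 22.1 CPM in PBS 1-1, 1-3, 2-1 and 2-5. The means were 23.0 ± 1.53 and 23.7 ± 1.22 CPM. Its log2 fold change was −0.04 (95% interval −0.21 to 0.13, FDR 0.777 in edgeR), the second narrowest interval of the 10 after that of Corin.

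The other renin-angiotensin genes were listed to show the rest of the pathway. Of 18 listed genes, 14 were tested, 0 were higher and 3 were lower in the tumor-bearing mice, beside 4.61% of all genes called lower. The median log2 fold change was −0.13, and 5 of the 14 had an unadjusted p under 0.05 in edgeR. All 3 lower genes act beside the main cascade: Prcp encodes a carboxypeptidase that can remove the last residue of angiotensin II, Enpep encodes aminopeptidase A, which makes angiotensin III, and Atp6ap2 encodes the (pro)renin receptor, an accessory protein of the vacuolar proton pump.

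Prcp stood at 11.7 to 13.2 CPM in LLC1 and 16.8 to 30.2 CPM in PBS mice. Its means were 12.4 ± 0.656 and 24.0 ± 5.86 CPM (log2 fold change −0.96, SE 0.15, FDR 0.00398 in edgeR). Enpep stood at 12.4 ± 1.54 and 17.1 ± 1.34 CPM (log2 fold change −0.47, FDR 0.0186). Atp6ap2 stood at 17.1 ± 1.58 and 22.7 ± 0.919 CPM (log2 fold change −0.41, FDR 0.0136). The groups did not overlap in any of the 3 genes, which were named because they were called on the same values. Every LLC1 mouse lay below every PBS mouse in 8.27% of all genes tested. Prcp and Atp6ap2 were called in all 8 fits that left out 1 mouse, and Enpep in 6, its FDR reaching 0.0595 without LLC1 1-2 or LLC1 1-5. All 3 were also called with library totals. Without PBS 1-1, 4 genes of the list were lower, Anpep being added (log2 fold change −0.37 and FDR 0.0559 in edgeR with all 8 mice, FDR 0.0230 without), beside 11.9% of all genes called. Without LLC1 1-2 or LLC1 1-5 the count was 2. Ren1, the renin gene, had at most 1 read in any mouse, and the level of renin transcript was below what this depth can measure.

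For coupling of the type 1 receptor (G proteins, phospholipases, arrestins and receptor kinases), 9 of 9 listed genes were tested and 0 were called by edgeR, DESeq2 or limma-voom. By edgeR 2 of the 9 had an unadjusted p under 0.05. Their median log2 fold change was −0.04.

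Corticosteroid receptor, enzyme and target genes were listed beside Nr3c2. Of 15 listed genes, 10 were tested, and 2 were higher and 0 lower in the tumor-bearing mice, beside 8.73% of all genes called. DESeq2 and limma-voom each called 3. The count depended on the mice: it was 7 without PBS 2-5, where 10.1% of all genes were called. It was 1 without LLC1 1-2, LLC1 1-3, LLC1 2-2 or PBS 1-3, where 3.32% to 5.11% of all genes were called. It was 4 when all genes with at least 1 count were tested and 1 with library totals. The median log2 fold change was 0.36, against an all-gene median of −0.01. In edgeR 7 of the 10 had an unadjusted p under 0.05, beside 25.5% of all genes. The list did not lie wholly on 1 side: the log2 fold changes of Nr3c1, the glucocorticoid receptor gene, and of the target Sgk1, not called, were −0.21 and −0.40. The other tested genes of the list had positive log2 fold changes. The 2 called genes were Lcn2, which encodes lipocalin 2 and is also an acute-phase gene, and Klf9, a glucocorticoid-induced transcription factor gene.

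Lcn2 stood at 4.73 to 8.997 CPM in LLC1 and 3.00 to 3.48 CPM in PBS mice. Its means were 6.45 ± 1.88 and 3.22 ± 0.201 CPM (log2 fold change 0.99, SE 0.20, FDR 0.0118 in edgeR). Klf9 stood at 95.9 ± 6.76 and 75.9 ± 9.28 CPM (log2 fold change 0.34, FDR 0.0372). Lcn2 was called in all 8 fits that left out 1 mouse, whereas Klf9 was called in 2 of them and had an FDR of 0.110 with library totals. Hsd11b2, whose product inactivates glucocorticoids beside the mineralocorticoid receptor, had at most 8 reads in any mouse. Cyp11b2, the aldosterone synthase gene, had 0 reads in all 8 mice.

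Endothelin and adrenomedullin genes, which act on the same vessels, gave 1 call among 9 tested of 9 listed, near the 8.73% of all genes called, and the median log2 fold change was −0.15. In edgeR 4 of the 9 had an unadjusted p under 0.05, and DESeq2 called 2. Ednrb, the endothelin B receptor gene, was lower in the tumor-bearing mice at 16.9 ± 0.730 against 23.8 ± 3.40 CPM (log2 fold change −0.49, SE 0.10, FDR 0.0138 in edgeR). Ednrb was called in all 8 fits that left out 1 mouse. Without PBS 1-1, 1 gene was higher (Ednra) and 2 were lower (Ednrb and Calcrl), beside 11.9% of all genes called in that fit.

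Of 8 genes often read beside Nppa and Nppb in loaded ventricles, some of which are known to fall there (Myh6 and Atp2a2), all 8 were tested, 2 were higher and 0 lower, beside 4.12% of all genes called higher. The count was 4 without PBS 2-5, where 10.1% of all genes were called. It was 1 without LLC1 1-3, LLC1 1-5, PBS 1-3 or PBS 2-1, where 3.32% to 5.88% of all genes were called. It was 0 with library totals, where 6.32% of all genes were called. The median log2 fold change of the 8 genes was 0.17. Myh7, the slow beta-myosin heavy chain gene, stood at 6460 ± 357 CPM in LLC1 and 4757 ± 596 CPM in PBS mice (log2 fold change 0.44, SE 0.09, FDR 0.0137 in edgeR). Myh6, the alpha-myosin gene of the adult mouse ventricle, stood at 54333 ± 1434 and 45869 ± 1227 CPM (log2 fold change 0.24, FDR 0.0209). Both myosin genes were thus higher, and both lost the call with library totals (FDR 0.0704 and 0.124). Myh7 was called in all 8 fits that left out 1 mouse and Myh6 in 4.

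The transcription factor genes known to act on Nppa and Nppb gave 0 calls among 10 tested of 10 listed, by edgeR, DESeq2 and limma-voom alike. By edgeR 2 of the 10 had an unadjusted p under 0.05, and the median log2 fold change was 0.03. Without PBS 1-1, 3 of them were higher in the tumor-bearing mice (Gata6, Nkx2-5 and Srf), beside 11.9% of all genes called in that fit. With the first number of the code as a covariate, 1 of the 10 was called, beside 10.4% of all genes. Nkx2-5 stood at 56.7 CPM in PBS 1-1, at 25.8 to 29.4 CPM in the other PBS mice and at 36.1 to 42.9 CPM in the LLC1 mice.

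**Figure D4:**
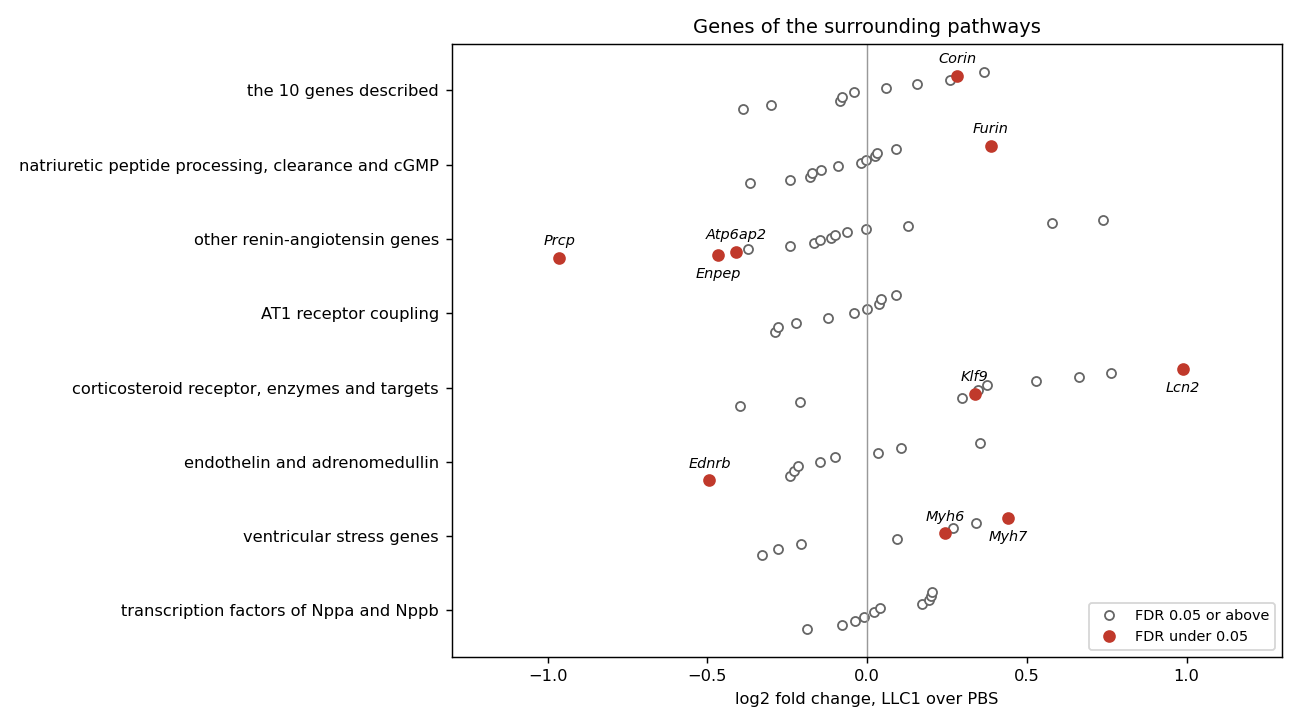
Log2 fold change, LLC1 over PBS (horizontal axis), of each tested gene in the 10 genes described and in 7 lists of related genes (rows). Filled red points have an FDR under 0.05 in edgeR and are named; open points do not. Prcp lies farthest to the left at −0.96 and Lcn2 farthest to the right at 0.99.

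The tissue was checked against markers of the cells a ventricle sample can hold. Ventricular cardiomyocyte markers were abundant, with a summed level of 37292 to 41413 CPM in LLC1 and 35389 to 37340 CPM in PBS mice, and 0 of 6 were called by edgeR. Of the 6, 3 had an unadjusted p under 0.05, and DESeq2 and limma-voom each called 1. Without PBS 1-1, 2 of the 6 were higher, Tnnt2 (FDR 0.0465 in edgeR) and Tnni3 (0.0409), beside 11.9% of all genes called. Corin over the sum of these markers is given above, where the groups overlapped.

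Atrial tissue matters for Nppa, which is an atrial gene in the adult. Atrial markers were low: Bmp10 had 0 reads in all 8 mice, Sln at most 6 reads, and Myl7 stood at 0.331 to 2.04 CPM. Myl4, an atrial light chain gene, was detected in every mouse, at 1.38 to 1.98 CPM in LLC1 and 1.83 to 2.94 CPM in PBS mice (log2 fold change −0.59, FDR 0.0985 in edgeR). Of 7 atrial markers, 4 were tested. Of these, 1 was higher (Stard10) and 1 lower (Dkk3), beside 4.12% and 4.61% of all genes. Stard10 was called in all 8 fits that left out 1 mouse, and Dkk3 in 3. Their summed level was 21.4 to 22.6 CPM in LLC1 and 18.3 to 20.5 CPM in PBS mice, most of it Stard10. Their part in the Nppa levels was not tested.

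Endothelial markers, which matter for Ace, summed to 693 to 809 CPM in LLC1 and 781 to 1046 CPM in PBS mice, with 1 of 5 lower (Kdr), beside 4.61% of all genes called lower, and 2 called by DESeq2. Without PBS 1-1, 3 of 5 were lower, beside 11.9% of all genes called in either direction. Against the same 4.61%, fibroblast markers were lower for 2 of 5 genes, Lum and Col1a1. The log2 fold changes of Dcn, Pdgfra and Tcf21, not called, were 0.07, −0.07 and −0.21. Lum was called in all 8 fits that left out 1 mouse and Col1a1 in 1, and limma-voom called 1 of the 5. Beside the same 4.61%, 1 of 2 mast cell markers tested was lower, Kit (log2 fold change −1.66). Tpsb2 did not pass, with a log2 fold change of 0.72. Endocardial markers, which matter for Npr3, summed to 123 to 181 CPM in LLC1 and 122 to 162 CPM in PBS mice. In edgeR 0 of the 5 endocardial markers were called or had an unadjusted p under 0.05, and DESeq2 and limma-voom called 0. No gene of the conduction system, smooth muscle and pericyte, macrophage, mesothelial or red blood cell lists was called by edgeR, with 1, 3, 2, 0 and 0 genes, in that order, at an unadjusted p under 0.05. DESeq2 called 1 smooth muscle and pericyte gene and 1 macrophage gene, and limma-voom called 0 in these lists. Without PBS 1-1, 2 of the 4 macrophage markers were lower, Csf1r (FDR 0.0128 in edgeR) and Adgre1 (0.00254), beside the same 11.9%. Mesothelial markers summed to 10.0 to 56.7 CPM in LLC1 and 16.6 to 43.3 CPM in PBS mice. The part of these cell types in the differences above was not tested.

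Apart from Nppa, the overlap with other genes was small. Antisense or overlapping genes share 11.7% of the exon bases of Npr1, 5.70% of Npr2, 5.58% of Ace, 3.82% of Nr3c2, 3.42% of Npr3 and 2.72% of Corin. In this annotation Nppb, Agt and Agtr1a share none. The deposited interval of Npr3 differs from that in GENCODE M21, which was not named as the annotation behind the counts.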

How the data were processed

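The authors sequenced 1 library (TruSeq RNA Library Prep Kit V2) per mouse ventricle with 150-base paired ends, and deposited raw read counts per gene on mm10. The submitters' processing notes name CASAVA, STAR and featureCounts; their versions, the annotation and the strand setting were not given in the sources used here. Of the 43346 genes, 16111 passed edgeR's filter on low counts. They were scaled with TMM factors and tested with edgeR 4.0.16 (limma 3.58.1, R 4.3.3) by the quasi-likelihood F-test, LLC1 against PBS, with Benjamini-Hochberg adjustment over all genes. Standard errors are the log2 fold change divided by the root of F. Exact 2-sided permutation tests used all 70 arrangements of the mice; 0.5 was added to counts in ratios. Adjustment was over 3 ratios, and 1 of them, with some single genes, is not reported here. Mice are separate animals, so the spread holds both biological and technical differences. Precision is given by the intervals of the fit, on 42 to 6678 reads per member gene and mouse.

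The genes and lists were chosen with earlier results of these data known. The text names the 10 genes, pathway genes with an FDR under 0.05 and a few fixed others, atrial markers, and genes within 100 kb of Nppa or Nppb. For genes with an SD of log2 CPM of at least 0.4 over the 8 mice it also names the 5 nearest patterns among genes with a mean of at least 1 CPM. Endothelin, transcription factor and marker genes that differed in call without PBS 1-1, and other single genes outside this rule, were named after their values were seen. Gene lengths are those in the deposited table, overlaps come from GENCODE M21 and similar transcripts from BLAST 2.17.0 (at least 85% identity over 150 bases). Alternatives were DESeq2 1.42.0, limma-voom, other scalings and filters, robust variance estimation, the code as a covariate, and each mouse left out in turn. The fit was tested on simulated counts.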

Additional observations from a re-analysis of the deposited data

Results flagged for a closer look

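Values were flagged where 1 mouse of a group of 4 stood far from the other 3, by Dixon's test on the ratio of gap to range at the 95% level. Of 24 groups tested, 1 was flagged, and chance flags about 1 in 20.

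Corin in PBS 1-1 stood at 235 CPM, below the other PBS mice at 253 to 256 CPM. Without this mouse the log2 fold change of Corin was 0.25 in place of 0.28.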

How the results depend on the processing

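Of 160 alternative fold changes of the 10 genes, 151 kept direction and side of the threshold. With library totals 0 of the 10 were called, and with the first number of the code as a covariate 2 (Corin and Npr3); leaving out 1 mouse gave 0 to 1. Genes called numbered 542 without PBS 1-3 to 1949 without PBS 1-1, against 1406. Leaving out 1 mouse turned the direction of Nppa without LLC1 2-2 (range −0.133 to 0.51), of Nppb without PBS 1-1 (−0.543 to 0.0714) and of Ace without PBS 2-5 (−0.212 to 0.0411). Ace also turned with the code as a covariate (0.000207). The log2 ratio of Nppa to Nppb turned without LLC1 2-2 (−0.0810) and PBS 1-1 (−0.00309) and reached 0.688 without PBS 2-5. The cause was not tested. No paired analysis was done because the labels name no pairs of mice between the groups. Depth limits Agt, at 42 to 174 reads, and Ren1, Nppc, Agtr1b and Agtr2, which were too thin to test.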
